A study of Mus musculus with 5 samples.

Results

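The 10 genes Fos, Fosb, Jun, Junb, Jund, Egr1, Atf3, Ier2, Ier3 and Dusp1 belong to the immediate-early response, and all 10 were measured, out of 12393 named genes on the array. They were taken by name from the array annotation as probe sets assigned to exactly 1 gene. Together they had 11 probe sets, with a pair for Jun and 1 for each of the other 9 genes, and the probe set with the highest mean signal stood for each gene. Total RNA of C57BL/6 mice came from 2 pools, each of several animals, one from the whole body at 1 day of age and the other from the colon at 8 weeks. The pools were mixed to give colon shares of 0%, 25%, 50%, 75% and 100%, and 10 ng of each mix was amplified by a T7 double amplification and hybridised to 1 Affymetrix array. The labels list no treatment, and no mix was repeated, so tissue and age differ together and no value carries a spread between mice. In RNA from whole tissue, more cells that use a gene and more RNA per cell cannot be told apart.

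Immediate-early genes are switched on within minutes of a stimulus such as a growth factor, stress or nerve activity, from factors already present in the cell, and their RNAs are short-lived. Growth factor signals reach them through the ERK kinases and serum response factor with its partners, and cyclic AMP and calcium signals through CREB, which binds the cyclic AMP response element. Fos and Fosb pair with Jun, Junb or Jund to form AP-1, a dimeric transcription factor. Egr1 is a zinc finger factor, Atf3 is a factor of the ATF and CREB class, and Dusp1 ends the signal by removing phosphate from MAP kinases.

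Of the bases before the start of the genes, the windows that held letters of the cyclic AMP response element or of the related site of Jun are given. Windows of 8 of the 10 genes were taken from RefSeq's promoter table of GRCm38.p6, and the promoters of Egr1 and Ier2 were not examined. Each window was the 250 bases upstream of the annotated start, read on the gene's own strand. Capitals mark matches on either strand to TGACGT (the core of the response element), TTACGT, TGACATCA or TATAAA, and overlapping matches run together.
Fos, chr12:85473640-85473889, plus strand: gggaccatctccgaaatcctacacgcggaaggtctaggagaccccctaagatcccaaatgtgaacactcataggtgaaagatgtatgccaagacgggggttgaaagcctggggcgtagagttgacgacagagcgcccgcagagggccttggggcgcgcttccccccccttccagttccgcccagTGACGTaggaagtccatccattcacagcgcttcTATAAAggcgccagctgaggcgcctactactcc
Atf3, chr1:191183334-191183583, minus strand: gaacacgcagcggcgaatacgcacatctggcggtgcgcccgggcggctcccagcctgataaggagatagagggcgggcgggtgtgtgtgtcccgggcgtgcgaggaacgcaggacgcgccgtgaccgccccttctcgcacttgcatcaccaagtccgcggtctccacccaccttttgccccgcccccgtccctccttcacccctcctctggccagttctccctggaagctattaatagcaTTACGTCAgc
Dusp1, chr17:26508473-26508722, minus strand: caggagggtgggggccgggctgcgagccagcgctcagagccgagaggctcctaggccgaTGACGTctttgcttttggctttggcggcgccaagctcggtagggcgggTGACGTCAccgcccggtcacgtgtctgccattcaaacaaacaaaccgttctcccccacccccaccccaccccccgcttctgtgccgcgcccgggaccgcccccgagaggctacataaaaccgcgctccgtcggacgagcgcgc
Jun, chr4:95052223-95052472, minus strand: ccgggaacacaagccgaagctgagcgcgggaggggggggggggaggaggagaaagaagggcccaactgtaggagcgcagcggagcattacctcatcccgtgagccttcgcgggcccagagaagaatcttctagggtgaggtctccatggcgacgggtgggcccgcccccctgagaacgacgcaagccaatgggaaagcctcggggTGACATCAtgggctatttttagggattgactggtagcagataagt

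The core TGACGT was found in the windows of 3 of the 8 genes, Fos, Atf3 and Dusp1, and in 6.47% of all 32851 windows of the same length. In Fos it lay 66 to 61 bases before the start, with TATAAA (12.4% of all windows) from 33 to 28. Atf3 held it in the reverse direction 8 to 3 bases before the start, overlapping TTACGT (2.40% of all windows). Dusp1 held a separate core 191 to 186 bases before the start and the whole element TGACGTCA (1.55% of all windows), which contains the core on both strands, from 143 to 136. TGACATCA (2.93% of all windows) was found in Jun alone among the 8. No match to the AP-1 site TGANTCA (6.75% of all windows) was found in the 8 windows. Nor was there a match to the CArG box (1.47%), the site of serum response factor. Bases farther upstream and the promoters of Egr1 and Ier2 were not searched, so whether either site lies there was not tested. CCAAT (33.8%) was found in Jun, Junb and Ier3. Of the genes with the core TGACGT, Fos and Atf3 rose with the colon share and Dusp1 did not pass the test given below. Junb, whose window held no such core, also rose. A match describes the letters only.

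Signals are the authors' log2 values from RMA, and the number of arrays limits their precision. Array medians lay between 6.83 and 6.92. The fitted slope on the colon share, from 0 to 1, is the log2 difference of colon minus whole mouse. A gene rose or fell where this slope passed limma's test at an adjusted p of 0.05 over 22626 probe sets. The summed signal of 11 colon epithelium markers went from 13.49 log2 in whole mouse to 16.39 in colon. Car1 and Slc26a3 had the largest slopes but did not pass (limma adjusted p = 0.174 and 0.106). Of the 11 slopes 10, all but that of Car1, were positive at an unadjusted limma p under 0.05, and 2 passed the adjusted threshold. The summed signal of 5 skeletal muscle markers went from 15.44 to 9.04, with 5 of 5 slopes negative at that unadjusted p and 2 past the adjusted threshold. The labelled tissues thus carried their defining markers. The log2 signal ratio of the 3′ to the 5′ control probe sets of Actb lay between 1.20 (whole mouse) and 1.86 (colon), and that of Gapdh between 1.41 (25% mix) and 1.68 (whole mouse). The part of the Actb difference in the results was not tested.

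Fos, whose protein is the short-lived partner in AP-1, had the largest slope of the 10 genes. Its probe set (1423100_at) gave log2 signals of 8.99 in whole mouse, 10.28 at 25% colon, 10.65 at 50%, 10.79 at 75% and 11.13 in colon. Every step was upward, and the step from 0% to 25% colon covered 60.2% of the whole log2 difference. The undiluted colon array was 4.40-fold above the undiluted whole mouse array. Fos rose with a slope of 1.91 (SE 0.39, 95% interval 0.91 to 2.92, limma adjusted p = 0.0327), a slope above that of 97.0% of the named genes. Without the whole mouse array the slope was 1.08 (limma adjusted p = 0.0414), and the call was lost without the 50% mix (0.0729), the 75% mix (0.105) or the colon array (0.114).

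Fosb, the close relative of Fos, was dim and showed no such pattern. It gave 5.60, 5.45, 5.24, 5.71 and 5.76 log2 in order of rising colon share (1422134_at). The lowest value was that of the 50% mix, and the undiluted arrays differed by 0.15 log2. The mean signal of Fosb lay above that of 26.4% of the probe sets, and the brightest of the poly-A spikes, control RNAs of bacterial genes, reached 4.81 to 5.23. Fosb did not pass (slope 0.23, 95% interval −0.38 to 0.83, limma adjusted p = 0.581), and this interval does not reach the fitted value of Fos.

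**Figure D1:**
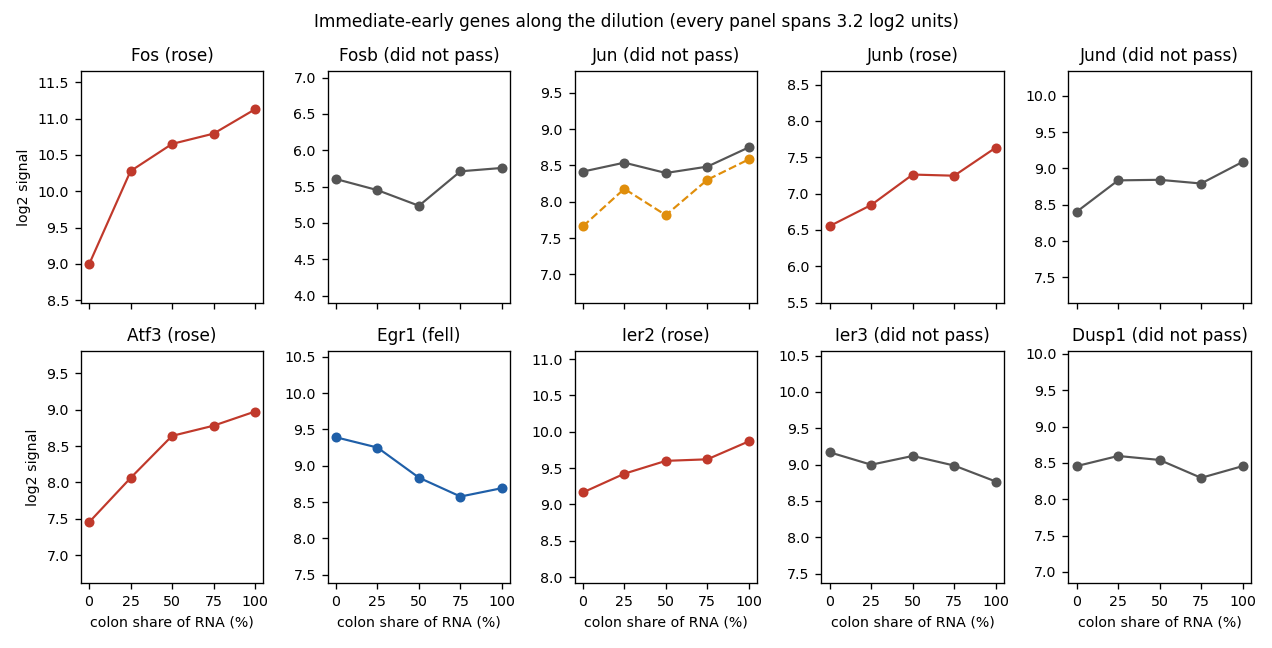
Log2 signal (vertical axis) of the 10 genes against the colon share of the RNA in percent (horizontal axis), 1 point per array, with red for genes that rose, blue for the gene that fell and grey for those that did not pass. The dashed orange line is the dimmer probe set of Jun. Fos climbs from 8.99 to 11.13, Egr1 goes from 9.39 to 8.69 and Dusp1 stays between 8.30 and 8.60.

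Of the Jun family, Junb rose, while Jun and Jund had positive slopes that did not pass. Junb, which can act as an activator or as a brake on Jun, gave 6.55 log2 in whole mouse, 6.84, 7.26 and 7.25 in the mixes and 7.63 in colon (1415899_at). The 50% and 75% mixes were level, and colon was 2.11-fold above whole mouse. The slope of Junb was 1.02 (SE 0.14, 95% interval 0.65 to 1.40, limma adjusted p = 0.0145), and the call was lost without the whole mouse array (slope 0.94, adjusted p = 0.0820) or without the colon array (slope 1.00, adjusted p = 0.100).

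Jun, the partner of Fos with the widest use, depended on the probe set. The brighter one (1448694_at) gave 8.42, 8.54, 8.40, 8.48 and 8.75 log2, so that the 4 arrays with whole mouse RNA lay close together. Its slope was 0.25 (95% interval −0.14 to 0.63, limma adjusted p = 0.326). The dimmer one (1417409_at) gave 7.66, 8.18, 7.82, 8.30 and 8.58, with the 50% mix below both of its neighbours. Its slope was 0.79 (95% interval 0.15 to 1.43, limma adjusted p = 0.0891), and both intervals overlap. Jund, the member of the family that many resting cells express, gave 8.40 log2 in whole mouse, 8.84, 8.84 and 8.79 in the mixes and 9.09 in colon (1449117_at). The step from 0% to 25% colon covered 63.0% of its difference between the undiluted arrays, and its slope of 0.53 did not pass (95% interval 0.09 to 0.98, limma adjusted p = 0.0958).

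Atf3, a stress-induced factor of the ATF and CREB class, had the next largest slope after Fos. It gave log2 signals of 7.45 in whole mouse, 8.06 at 25%, 8.64 at 50%, 8.78 at 75% and 8.97 in colon (1449363_at). The values were in strict order, and colon was 2.88-fold above whole mouse. Atf3 rose with a slope of 1.51 (SE 0.22, 95% interval 0.94 to 2.08, limma adjusted p = 0.0158). The call was lost without the whole mouse array (slope 1.15, adjusted p = 0.0738), the 75% mix (adjusted p = 0.0686) or the colon array (slope 1.83, adjusted p = 0.0555).

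Egr1, a zinc finger factor induced by the same growth factor signals as Fos, went the other way. Its log2 signals were 9.39 in whole mouse, 9.25 at 25%, 8.84 at 50%, 8.58 at 75% and 8.69 in colon (1417065_at). Whole mouse was highest and 1.62-fold above colon, and the 75% mix lay below undiluted colon. Egr1 fell by a fitted 0.83 log2 (SE 0.18, 95% interval −1.29 to −0.37, limma adjusted p = 0.0374), and its interval does not overlap that of Fos, Junb, Atf3 or Ier2. Of the 5 called genes it was the one that lost its call in a fit of all arrays, with a limma adjusted p of 0.0625 on linear signals, and without 1 array the adjusted p was 0.171 (whole mouse), 0.0848 (25% mix), 0.0795 (50% mix), 0.0935 (75% mix) or 0.0542 (colon), with slopes from −1.14 to −0.74.

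Ier2, a small nuclear protein of the early growth factor response, rose by less than Fos did. It gave 9.16, 9.42, 9.60, 9.62 and 9.87 log2, in strict order (1416442_at), and colon was 1.63-fold above whole mouse. Its slope was 0.64 (SE 0.11, 95% interval 0.35 to 0.93, limma adjusted p = 0.0237). Leaving out any 1 array ended the call, with limma adjusted p of 0.0936 without whole mouse, 0.05002 without the 25% mix, 0.0580 without the 50% mix, 0.0638 without the 75% mix and 0.132 without colon. Over these fits the slope of Ier2 stayed between 0.54 and 0.69.

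Ier3, a regulator of cell survival after stress, and Dusp1, the phosphatase that turns off MAP kinases, did not pass. Ier3 gave 9.17, 8.997, 9.12, 8.99 and 8.77 log2 (1419647_a_at), lowest in colon, with a slope of −0.33 (95% interval −0.67 to 0.02, limma adjusted p = 0.162). Dusp1 gave 8.46, 8.60, 8.54, 8.30 and 8.46 log2 (1448830_at). Its values on the undiluted arrays were identical, which RMA's median polish can produce, so the difference was 0. Its slope was −0.12 (95% interval −0.50 to 0.26, limma adjusted p = 0.645), so that a difference as large as that fitted for Fos, Junb, Atf3 or Ier2 lay outside the interval.

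**Figure D2:**
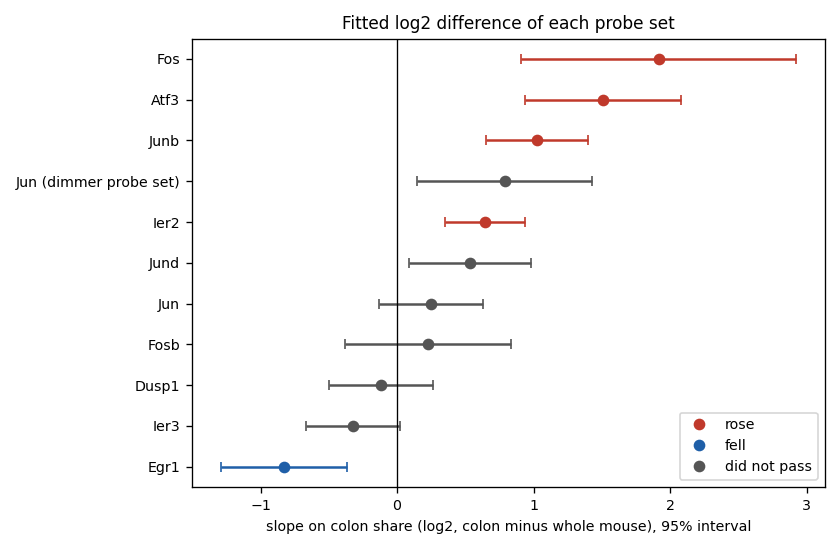
Slope of each of the 11 probe sets on the colon share (horizontal axis, log2 difference of colon minus whole mouse), as points with 95% intervals from limma over 5 arrays, sorted by slope. Fos stands at 1.91 and Egr1 at −0.83, and both Jun probe sets are shown, at 0.79 and 0.25.

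Among the 10 genes 4 rose (Fos, Junb, Atf3 and Ier2), 1 fell (Egr1) and 5 did not pass, with limma's test. Of all 12393 named genes 9.8% rose and 14.5% fell. With each array centred on its median the counts over all genes changed from 1215 rises and 1797 falls to 1933 and 1703, while those of the 10 genes were again 4 and 1. The rises were 1 without the whole mouse array, 3 without the 25% mix, 2 without the 50% mix, 1 without the 75% mix and 0 without the colon array, and none of the 10 genes fell in these limma fits. Over all 22626 probe sets the rises in these fits, in the same order, were 489, 1306, 491, 222 and 168, against 1953 with all arrays. The falls over all probe sets were 1003, 1692, 1428, 1143 and 829, against 2456. For the 10 genes, at an unadjusted p under 0.05, these fits gave 4 positive slopes without the whole mouse array, the 50% mix or the colon array and 5 without either of the other arrays. They gave 1 negative slope, or 0 without the whole mouse array. The median slope of the 10 genes was 0.39, against −0.01 over all named genes and 0.41 over the 8 reference genes, and 7 of the 10 slopes were positive. In strict order over the 5 arrays were 3 of the 10, against 20.7% of all named genes. Between the undiluted arrays 3 of the 10 genes (Fos, Junb and Atf3) were at least 2-fold higher in colon, against 9.26% of all named genes, and none was as far apart toward whole mouse, against 10.4%.

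The mixes allowed a comparison with simple mixing of the undiluted RNAs. For each gene the linear signals of the undiluted arrays were averaged by their shares, and the log2 deviation of the mix from that mean was taken. Over all probe sets the standard deviation of this value was 0.25 at 25% colon, 0.23 at 50% and 0.18 at 75%. Fos was 0.40 log2 above its mixing value of 9.88 at 25% colon, 0.23 above it at 50% and 0.03 below it at 75%. Fos at 25% was thus 1.57 standard deviations above the mixing value.

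Egr1 followed mixing at 25% colon (a deviation of 0.00) and fell below it by 0.25 log2 at 50% and by 0.33 at 75%. The deviation at 75% was 1.85 standard deviations, the largest of the 10 genes there. Fosb at 50% colon had the largest deviation of the 10 genes in any mix, −0.45 log2. Its signal there was 5.24 log2, and the brightest poly-A spike of that array was at 4.81. Ier2 deviated by 0.05 and 0.04 log2 at 25% and 50% colon and by −0.10 at 75%.

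**Figure D3:**
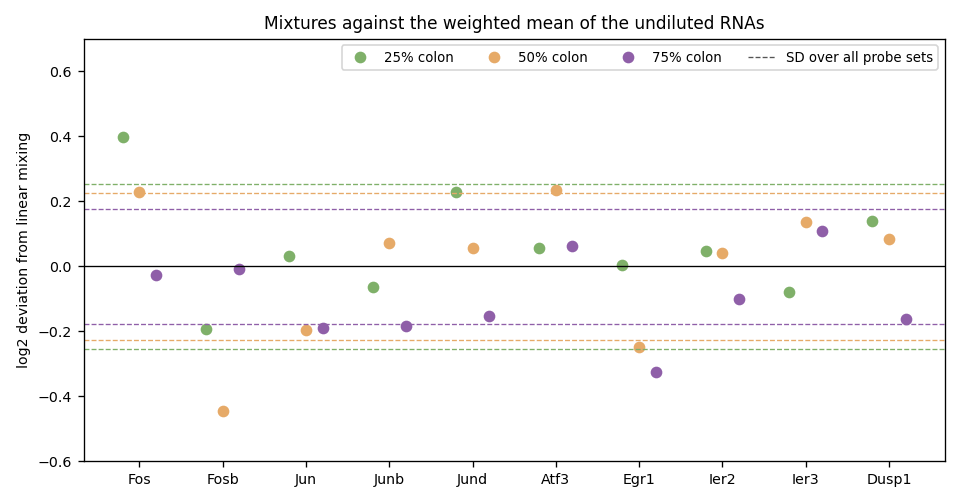
Log2 deviation of each mix from the share-weighted mean of the undiluted signals (vertical axis) for the 10 genes, with 1 point for each of the 25%, 50% and 75% mixes. Dashed lines in the same colours mark the standard deviation over all probe sets (0.25, 0.23 and 0.18), and Fos at 25%, Fosb at 50% and Egr1 at 75% lie farthest beyond their lines.

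The rest of the response was taken from 5 lists of 109 genes, of which 95 were measured. Some were dim, and the lowest mean signals in the lists, in the order given below, were 4.87, 4.24, 5.49, 5.71 and 3.19 log2. Of these 12 rose and 10 fell by limma, 12.6% and 10.5%, near the 9.8% and 14.5% of all named genes, and the median slope was 0.08. With the arrays centred on their medians 20 rose and 10 fell. Without 1 array the rises and falls were 0 and 4 (whole mouse), 7 and 7 (25% mix), 5 and 5 (50% mix), 1 and 6 (75% mix) or 1 and 3 (colon). The counts over all probe sets in these fits are given above and were also lower than with all arrays. Of the 22 called genes, 3 (Nfil3, Mmp9 and Timp1, all of which fell) passed without each array in turn. Of all named genes 19.8% had a positive and 21.5% a negative slope at an unadjusted limma p under 0.05.

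Among 21 other transcription factors of the immediate-early class 2 rose and 2 fell, with a median slope of 0.24, and at an unadjusted limma p under 0.05 there were 8 positive and 4 negative slopes. Bhlhe40, a repressor linked to the clock and to stress, rose by 1.50 log2 (limma adjusted p = 0.0461), and the Krüppel-like factor Klf6 by 0.95 (0.0230). Without the whole mouse array the slope of Bhlhe40 was 0.74 (limma adjusted p = 0.0564). Nfil3, a basic leucine zipper repressor, fell by a fitted 2.15 log2 (limma adjusted p = 0.00476), and its signals were 7.33 in whole mouse and 5.31 in colon. Klf4, a factor of differentiated gut epithelium, had 9.28 in whole mouse, 10.91 at 25% and 11.70 in colon and missed the threshold (slope 2.08, limma adjusted p = 0.0508). Other measured genes of the Fos and Egr families, chosen after their values were seen, did not pass. The slopes were 0.61 for Fosl1 (limma adjusted p = 0.0763), 0.39 for Fosl2, −0.62 for Egr2 (limma adjusted p = 0.0937), 0.10 for Egr3 and 0.03 for Egr4. Egr2 was dim, with a mean signal of 4.87 log2, at the level of the brightest poly-A spikes (4.81 to 5.23).

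Among 24 effectors 6 rose and 1 fell (median slope 0.16), with 9 positive and 2 negative slopes at an unadjusted limma p under 0.05. Gadd45a, a growth arrest and DNA damage protein, rose by a fitted 2.47 log2 (limma adjusted p = 0.0274), and its signals were 6.32 in whole mouse and 9.004 in colon. The kinase Sgk1, which supports sodium uptake in epithelia, rose by 2.34 (limma adjusted p = 0.0395), while Gadd45g fell by 1.21 log2 (limma adjusted p = 0.0135). Without the whole mouse array the slopes were 1.56 for Gadd45a (limma adjusted p = 0.0861) and 1.26 for Sgk1 (0.0831). Mcl1, a survival protein of the Bcl2 family, had 11.00 in whole mouse and 11.95 in colon (limma adjusted p = 0.0706).

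Feedback inhibitors, the group of Dusp1, had 2 rises and 2 falls in 15 measured genes (median slope 0.18), with 6 positive and 2 negative slopes at an unadjusted limma p under 0.05. The RNA-binding protein Zfp36l2, which promotes RNA decay, rose by 1.56 log2 (limma adjusted p = 0.0328) and the antiproliferative Tob1 by 1.45 (0.0432). Without the whole mouse array these slopes were 0.93 for Zfp36l2 (limma adjusted p = 0.0919) and 0.82 for Tob1 (0.152). The phosphatase Dusp14 fell by 0.76 log2 (limma adjusted p = 0.0225), and Dusp16 had 9.67 in whole mouse and 10.06 in colon (limma adjusted p = 0.104).

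Kinases and factors upstream had 2 rises and 2 falls in 24 measured genes (median slope −0.01), with 3 positive and 4 negative slopes at an unadjusted limma p under 0.05. Map2k1, the kinase that activates ERK, rose by 1.35 log2 (limma adjusted p = 0.0253), Nras, a GTPase above it, fell by 1.39 log2 (0.0265), and Elk3, a partner of serum response factor, fell by 1.38 log2 (0.00807). Elk4, another such partner, lay between 9.88 and 10.03 (limma adjusted p = 0.641).

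Of 11 measured genes that AP-1 is known to activate, none rose and 3 fell (median slope 0.00), and at an unadjusted limma p under 0.05 the count was 1 positive and 4 negative slopes. Those that fell were the matrix proteases Mmp13, which fell by 3.35 log2 (limma adjusted p = 0.0240), and Mmp9, which fell by 3.23 log2 (0.00446), and the protease inhibitor Timp1, which fell by 2.77 log2 (0.00483). Without the colon array the slope of Mmp13 was −2.22 (limma adjusted p = 0.102). Odc1, the first enzyme of polyamine synthesis, had 10.91 in whole mouse and 11.67 in colon (limma adjusted p = 0.0976). Mmp9 is also a neutrophil and osteoclast gene, and Mmp13 one of cartilage and bone.

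**Figure D4:**
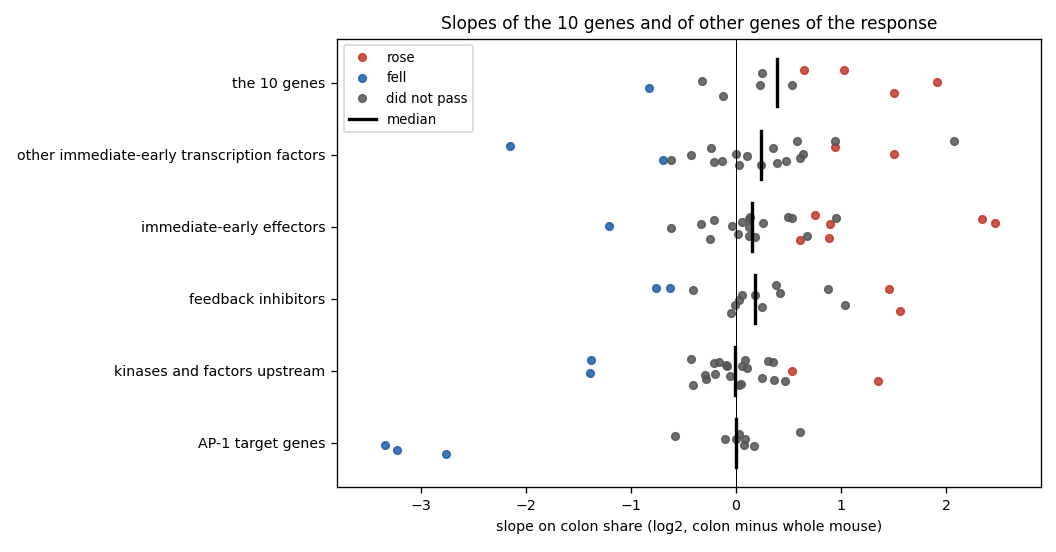
Slopes on the colon share (horizontal axis, log2 difference of colon minus whole mouse) of the 10 genes and of the 5 other lists, 1 point per gene (brightest probe set), with red for genes that rose, blue for genes that fell, grey for those that did not pass and a black bar at the list's median. The medians are 0.39 for the 10 genes and 0.24, 0.16, 0.18, −0.01 and 0.00 for the lists from top to bottom.

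For each of the 5 called genes the nearest patterns were sought among all other named genes, by the root mean square difference of the 5 log2 values after each gene was centred on its own mean. Nearest to Fos were Myo5b, a myosin motor of epithelial membrane traffic (0.047), Uap1, an enzyme of amino sugar synthesis (0.047), and Prr13 (0.048). Atf3 was nearest to Lrrc42 (0.038), the kinase Frk (0.051) and Xdh, xanthine dehydrogenase (0.052). Nearest to Junb were the adaptor Nck2 (0.024), the galanin receptor Galr2 (0.046) and Sgsm3 (0.047), and nearest to Egr1 the actin regulator Cap2 (0.038), the endothelial factor Sox7 (0.044) and the stress protein Sesn1 (0.044). Ier2 was nearest to Auts2 (0.017), Reep3 (0.021) and 1110059E24Rik (0.023). Such likeness was common, since 166 genes lay within 0.15 of Fos and 1429 within 0.15 of Ier2.

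Markers of the cell types in these tissues moved along the dilution beside these genes, and their part in the results was not tested. Given as summed log2 signals from whole mouse to colon, 6 smooth muscle markers went from 12.92 to 14.46 (1 rose), and 5 B and plasma cell markers from 8.66 to 13.78 (none passed limma's adjusted threshold, and at an unadjusted p under 0.05 there were 2 positive slopes and 1 negative). That sum was carried by the antibody genes Igha (6.81 to 13.59) and Jchain (4.26 to 10.54), while the B cell receptor genes Cd79a and Cd79b went from 5.88 to 5.65 and from 7.13 to 6.59. Of the 11 colon epithelium markers 2 passed the adjusted threshold, both as rises. In 8 myeloid markers 4 fell and 1 rose (13.11 to 11.87), with S100a9 and S100a8, granule proteins of neutrophils, falling by 5.60 and 5.54 log2. The rise was that of Cd14, from 6.93 to 9.44 (slope 2.55, limma adjusted p = 0.0187). Csf1r and Cd68 were the other falls, and Itgam, Adgre1 and Lyz2 did not pass. None of 6 T cell markers passed limma's test (9.39 to 9.28, and 0 at an unadjusted p under 0.05), and of 4 enteric neuron and glia markers 1 rose and 1 fell (8.44 to 9.61). The enteric sum was carried by Vip (6.28 to 9.25), while Elavl4, Sox10 and S100b had negative slopes (−0.30, −0.40 and −0.88). Falls numbered 2 of 4 in endothelium (9.85 to 9.01), 2 of 5 in fibroblasts (14.50 to 12.78), 2 of 5 in skeletal muscle, 2 of 5 in liver (15.44 to 10.32), 2 of 5 in skin (15.10 to 8.64), 3 of 4 in cartilage (12.53 to 8.26) and 3 of 3 in erythroid cells (11.71 to 7.45), and at an unadjusted limma p under 0.05 the slopes of 5 of 5 markers each of skeletal muscle, liver and skin were negative. The fibroblast falls were those of the collagen genes Col1a1 (slope −3.40) and Col1a2 (−2.11). Pdgfra, Dcn and Lum did not pass, with slopes of −0.21, 0.43 and −0.31. The lowest marker by mean signal was at 4.46, among the myeloid genes. Of 8 reference genes 2 rose, B2m by 1.14 log2 and Tbp by 0.59, and none fell. At an unadjusted limma p under 0.05, 5 of the 8 slopes were positive and 0 negative, and the median slope was 0.41, next to 0.39 for the 10 genes.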

How the data were processed

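The deposited values are log2 signals that the authors made with RMA, per the submitters' processing notes, for 22690 probe sets on 5 Affymetrix arrays, 1 per mix. RMA corrects background, equalises the arrays by quantiles and summarises probes by median polish, which can give identical values on several arrays. No version of RMA was given in the sources used here. Samples were grouped by the colon share in their titles. Leaving out 64 control probe sets, 22626 were tested, of which 20380 were annotated to 1 gene, 691 to several and 1555 to none listed. Symbols were updated through gene identifiers in a RefSeq table of GRCm38.p6, which matched 20351.

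A straight line in the colon share was fitted to the log2 values with limma 3.58.1 in R 4.3.3 (lmFit, eBayes), with 3 residual degrees of freedom, 2-sided p-values and Benjamini-Hochberg adjustment over all probe sets. The p-values measure technical spread and any bend from a straight line, not the spread between mice. Alternatives were median centring, linear signals, a mean signal of at least 6, a trended robust variance, the mean of a gene's probe sets and leaving out each array.

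Members and lists were chosen with earlier results of these data known. Besides the 10 genes and all their probe sets, genes were named by a rule. It took from each list of the response the 3 called genes with the largest slopes and the brightest gene not called, from marker and reference lists the 2 largest slopes, and for each called gene the 3 nearest patterns. Other names in the text were chosen after their values were seen.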

Additional observations from a re-analysis of the deposited data

How the results depend on the processing

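No slope of the 10 genes changed sign in any of the 10 alternatives. Of 99 slopes compared, 80 kept their side of the threshold and 19 were called with all arrays but not in the alternative, 18 of them where an array was left out and the other for Egr1 on linear signals, where 0 genes fell by limma (1 at an unadjusted p under 0.05). The number of the 10 genes that rose was 4 in each alternative that used all arrays and between 0 and 3 when 1 array was left out. The number that fell was 0 in all 5 fits that left out an array. Those fits have fewer residual degrees of freedom, and each of them also called fewer of all probe sets than the fit of all arrays. The part of the degrees of freedom in the lost calls was not tested. Among the other genes of the response, rises went from 12 to 20 with median centring and to 19 with the mean of a gene's probe sets, and to between 0 and 7 when an array was left out. Falls went from 10 to between 3 and 7 when an array was left out. The filter on mean signal removed Fosb, so it has no value there. The median size of the deviation from mixing was 0.12 log2, and 0.13 after the 5th percentile of each array was subtracted. That subtraction raised the standard deviation over all probe sets to 0.36 at 25% colon, 0.33 at 50% and 0.26 at 75%. Deviations given above in standard deviations therefore hold for the signals without it. The median difference between the undiluted arrays over the 10 genes was 0.51 log2, and 0.59 after centring. No paired analysis was possible because each mix had 1 array and the labels carry no replicate numbers. Signals at the level of the brightest poly-A spikes (Egr2) or little above it (Fosb) limit what a slope can show.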
